A study of Mus musculus with 31 samples.

Results

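Mouse cells being reprogrammed towards pluripotency were sampled on day 8 under 6 conditions, and each condition was sequenced under the number 0824 and again under the number 0826, both given in the sample titles. These 12 of the 31 RNA-seq libraries of the series were compared here as 6 pairs, each pair sharing its virus and its medium, to find which expression programmes vary between repeats of the same conditions. The labels do not explain the numbers, and nothing in them says whether the libraries of a pair came from separate cultures, so the spread behind each p-value may be technical. The 6 pairs are different conditions within the same 2 numbers. The p-values thus measure how steady a difference was over the conditions, not how further repeats would vary. All 12 libraries received the OKSM reprogramming factors, that is Pou5f1 (Oct4), Klf4, Sox2 and Myc. 6 of them also received a Flag virus and 6 a virus labelled Tet1CD, whose insert the labels do not describe. Within each virus the medium held DMSO, DKG or Vc (vitamin C), with no dose given and DKG not spelled out. The cells were of strain 129/OG2 at passage 0. Another 12 libraries of the same 6 conditions and the same 2 numbers at day 3, an untreated mouse embryonic fibroblast (MEF) library for each number, and 2 embryonic stem cell (ESC) libraries served as points of comparison.

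During reprogramming the introduced transcription factors first shut down the programme of the starting cells, then cells take on epithelial junctions and keratins in a mesenchymal-to-epithelial transition, and late in the process the endogenous pluripotency network is switched on. TGF-beta signalling and AP-1, a dimer of Fos and Jun family proteins, are known to hold cells in the mesenchymal state, and p53 is known to restrict the number of cells that complete the process. TET1 oxidises 5-methylcytosine, and vitamin C supports the activity of such dioxygenases.

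Expression was measured as estimated read counts per gene, given below as CPM, counts scaled to the library's total after correction for its composition. Differences are on the log2 scale, as 0826 minus 0824, from edgeR's quasi-likelihood test with the pair as a block and Benjamini-Hochberg adjustment over 13795 genes. A gene was called where its adjusted p was under 0.05. The 6 libraries numbered 0824 held 4877890 to 6818060 counts and the 6 numbered 0826 held 3953297 to 5668541, with the lower total in 0826 in 5 of 6 pairs. CPM values compare libraries, not genes with each other. Introduced and endogenous copies of a gene are counted together.

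Both the number and the condition separated the 12 libraries. The first principal component, with 42.1% of the variance, ran from -46.8 to -26.5 in the 0824 libraries and from 10.9 to 53.1 in the 0826 libraries. The second, with 22.6%, ran from the Tet1CD Vc libraries at -52.3 and -44.9 to the Flag DMSO libraries at 41.7 and 16.6. Gene by gene, a median of 34.2% of the squared deviations lay between the numbers and 37.6% between the 6 conditions, and the number took the larger part in 6468 genes (46.9%). The differences of the 6 pairs correlated across genes with r from 0.449 to 0.722 over the 15 combinations of pairs, a description only, since genes are not independent replicates.

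**Figure D1:**
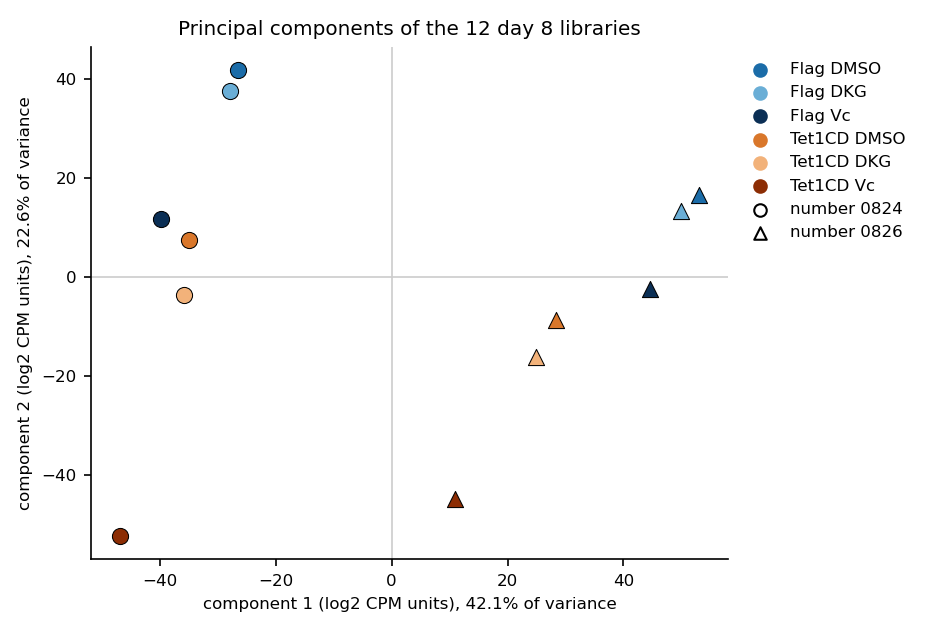
First 2 principal components of log2 CPM in the 12 day 8 libraries, with the percent of variance on each axis. Points are libraries, coloured by condition, with circles for 0824 and triangles for 0826. The 0824 libraries lie below 0 and the 0826 libraries above 0 on the first axis, while the second axis runs from Tet1CD Vc to Flag DMSO.

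Of the 13795 genes tested, 7507 (54.4%) differed between the numbers. Of these, 3551 were higher in 0826 (25.7% of genes tested) and 3956 were higher in 0824 (28.7%). The difference had the same sign in all 6 pairs for 2958 (83.3%) of the former and 3157 (79.8%) of the latter. The 6 and 6 libraries did not overlap for 1653 genes higher in 0826 (12% of genes tested) and 1569 higher in 0824 (11.4%). The median size among called genes was 0.55, and 832 genes were higher by over 1 log2 in 0826 against 705 in 0824. The median over all genes was -0.04. Scaling by library totals alone moved that median to -0.13 and changed the split of 7811 calls to 37.0% higher in 0826, against 47.3% under the composition correction. The counts of list members below are read against 25.7% and 28.7%, and a share near these is not a result about the list.

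1 library stood apart. The Tet1CD Vc library numbered 0824 carried macrophage transcripts. Ctss, a lysosomal protease of macrophages, was at 149.7 CPM there and between 0.146 and 2.16 in the other 0824 libraries, and at 1.01 or less in 0826. The summed level of the 17 macrophage and blood markers was 1901 CPM in that library, 24.9 to 88.8 in the other 5 of 0824 and 30.2 to 107 in the 6 of 0826. The 107 was the Tet1CD Vc library of 0826. At day 3 the sum was also highest in the Tet1CD Vc library of each number, at 163.5 CPM in 0824 and 93.45 in 0826. In the untreated MEF libraries the sum was 2927 CPM for 0824 and 619.5 for 0826. The defining markers Adgre1 (F4/80) and Ptprc (CD45) reached 47.0 and 52.7 CPM in 0824, whereas Adgre1 was at 0 in all 6 libraries of 0826. Only 6 of the 17 markers passed the filter on low counts. Of these, 4 were called higher in 0824 and 0 in 0826, and without this pair 1 of 5 was. Inpp5d, a phosphatase of blood cells, followed at 70.8 CPM in that library against 1.02 to 3.39 in the other 5. Leaving the whole pair out gave 7661 calls in the other 5 pairs.

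**Figure D2:**
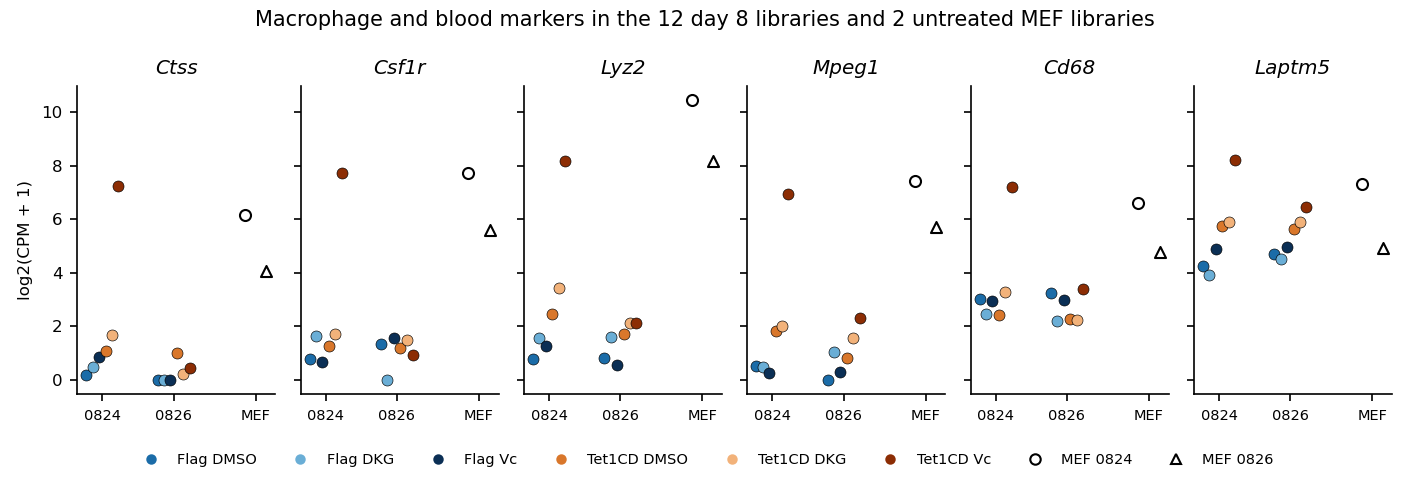
Level of the 6 tested macrophage and blood markers as log2(CPM + 1) in each of the 12 day 8 libraries, coloured by condition, and in the 2 untreated MEF libraries (open symbols). In each panel the Tet1CD Vc library of 0824 lies above all 11 other day 8 libraries, with Ctss at 149.7 CPM.

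The reprogramming factors themselves were slightly higher in 0826, and all 4 were called. Pou5f1 was between 919 and 1544 CPM in 0824 (median 1194) and between 1145 and 2288 in 0826 (median 1771), and the groups overlapped. Its log2 difference was 0.49 (SE 0.06, adjusted p = 2.0e-05). Sox2, with a median of 552 CPM in 0824 and 873 in 0826, differed by 0.56 (SE 0.07). Klf4 differed by 0.68 (SE 0.07) and Myc by 0.71 (SE 0.09). At day 3 the 4 factors lay the other way. Their day 3 differences were -0.92 for Pou5f1, -1.20 for Sox2, -1.26 for Klf4 and -0.78 for Myc, and all 4 were called higher in 0824. The change of the difference from day 3 to day 8 was itself called for all 4, at 1.41, 1.76, 1.94 and 1.49 in the same order.

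**Figure D3:**
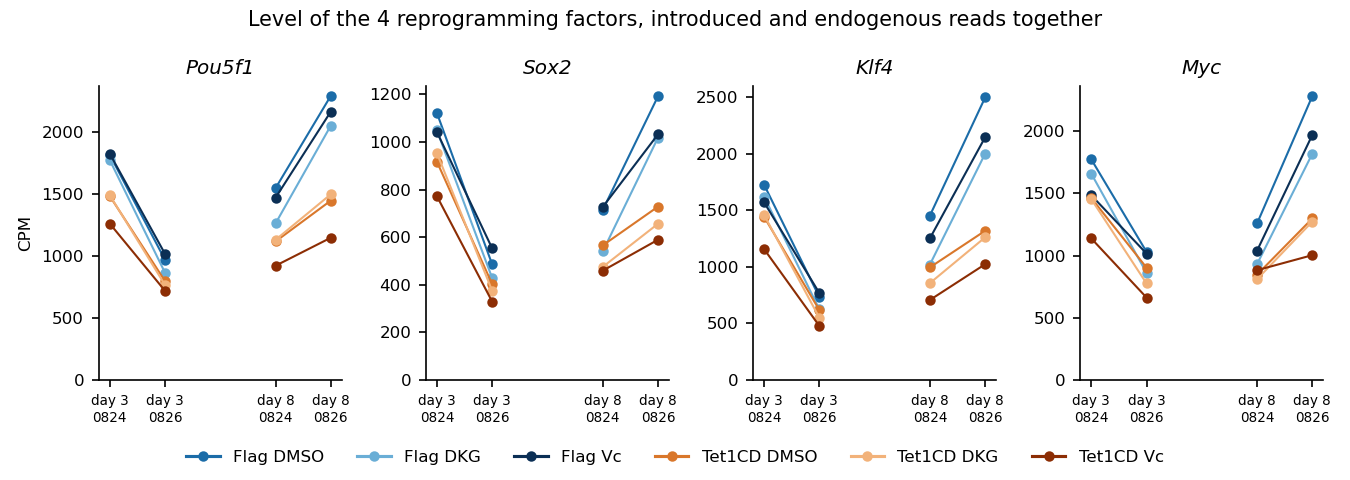
CPM of the 4 reprogramming factors, introduced and endogenous reads together, in each day 3 and day 8 library. Lines join the libraries of 1 condition, coloured by virus and medium. The 4 factors are lower in 0826 at day 3 (log2 differences -1.26 to -0.78) and higher in 0826 at day 8 (0.49 to 0.71).

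Tet1 followed the virus first. In the Flag libraries it was at 9.36 (DMSO), 7.60 (DKG) and 33.1 (Vc) CPM in 0824, against 4.32, 4.94 and 5.88 in 0826. In the Tet1CD libraries it was at 331, 302 and 183 CPM in 0824, against 608, 629 and 252 in 0826. Tet1 was thus lower in 0826 in all 3 Flag pairs and higher in all 3 Tet1CD pairs. The difference over all pairs was 0.31 (adjusted p = 0.42), and its dependence on the virus was 2.47 (SE 0.34, adjusted p = 0.053), not past the threshold.

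Endogenous pluripotency genes were lower in 0826. Of 35 tested, 28 were called higher in 0824 and 3 higher in 0826, with a median log2 difference of -1.47. Without the Tet1CD Vc pair, 25 of 32 were higher in 0824 and 2 in 0826, with a median of -1.06. A gene could pass the filter on low counts through the few libraries where it was high. The count and the median may thus lean towards 0824, which was not tested. The same applies to other lists with weakly expressed genes. Nanog, the homeodomain factor of the pluripotent state (chr6:122707489-122714633, GRCm38), was between 11.99 and 51.6 CPM in 0824 (median 32.7) and between 3.56 and 17.2 in 0826 (median 6.23). The ranges overlapped, because the Tet1CD Vc library of 0826 lay above the 2 lowest of 0824, but Nanog was lower in 0826 in all 6 pairs. Its log2 difference was -2.01 (SE 0.17, adjusted p = 1.8e-06).

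Within each number Nanog was lowest in the Flag DMSO and Flag DKG libraries, and other genes of the list followed that order. Utf1, a chromatin protein of ESC, was at 1.02 CPM in Flag DMSO and 44.2 in Tet1CD Vc of 0824, and at 0 and 6.91 in the same conditions of 0826. It differed by -3.11 (SE 0.24). Tdgf1, the Nodal co-receptor, went from 1.90 in Flag DMSO to 84.8 CPM in Tet1CD Vc of 0824, and from 0 to 31.9 in 0826, and differed by -2.29 (SE 0.25). The zinc finger factor Sall4 differed by -2.44 (SE 0.22), the nuclear receptor Esrrb by -2.40 (SE 0.34), the RNA-binding Lin28a by -2.30 (SE 0.30) and the zinc finger factor Zscan10 by -2.06 (SE 0.26). These lay among the 15 largest ranked differences higher in 0824. Only called genes with a mean of at least 5 CPM and the same sign in 6 of 6 pairs were ranked. Dppa3, Dppa4, Nr5a2 and Nodal, each with a mean under 5 CPM over the 12 libraries, differed by -3.40, -2.84, -2.73 and -2.71. Klf5 and Tbx3, which also act in ESC, went the other way, at 0.89 and 0.89 (both named after their values were seen). Many of the called genes were near 0 in 0826 outside the vitamin C libraries, so fold sizes there rest on few counts.

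Epithelial genes were lower in 0826 as well. Of 24 tested, 21 were called higher in 0824 and 0 higher in 0826, with a median of -1.39 that was below 0 in all 6 pairs. Esrp1 and Esrp2 are the splicing regulators of epithelial cells. Esrp2 was between 15.97 and 29.9 CPM in 0824 (median 18.5) and between 2.79 and 9.15 in 0826 (median 4.66), with no overlap. It differed by -1.97 (SE 0.19, adjusted p = 7.1e-06) and Esrp1 by -1.88 (SE 0.18), also with no overlap. Cldn6, a tight junction claudin, differed by -2.66 (SE 0.29), Rab25, an apical recycling GTPase, by -2.21 (SE 0.29), and Grhl3, an epithelial transcription factor, by -1.89 (SE 0.21). Cdh1, which encodes E-cadherin and is named after its values were seen, was between 35.7 and 89.2 CPM in 0824 and between 10.4 and 31.9 in 0826, and differed by -1.42 (SE 0.13). The summed level of the epithelial list was 958 to 1521 CPM in 0824 and 518 to 893 in 0826.

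Genes of stratified epithelium were lower too. Of 19 tested of 23 listed, 14 were called higher in 0824 and 0 higher in 0826, with a median of -0.90. Krt17, a keratin of basal and wounded epithelium, was between 21.04 and 58.4 CPM in 0824 and between 2.08 and 9.55 in 0826, with no overlap, and differed by -2.45 (SE 0.18, adjusted p = 8.3e-07). Krt6a (-1.45), Krt6b (-1.62), Krt14 (-1.27) and Dsg3, a desmosomal cadherin (-1.57), were called in the same direction. Krt6a, Krt6b and Krt17 are near copies of other keratins, so the sharing of reads among them is uncertain. The Tet1CD Vc pair did not show the difference: the median over the list was 0.03 there, and without that pair 15 of 18 genes were higher in 0824 with a median of -1.18.

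The fibroblast programme lay the other way. Of 34 fibroblast and mesenchymal genes tested, 30 were called higher in 0826 and 1 higher in 0824, with a median of 0.76. Their summed level was 10826 to 13869 CPM in the 0824 libraries and 19015 to 23919 in the 0826 libraries, with no overlap. Col3a1, a fibrillar collagen, was between 216 and 349.9 CPM in 0824 (median 317) and between 586 and 1028 in 0826 (median 932). It differed by 1.60 (SE 0.07, adjusted p = 3.8e-08). The collagen-binding proteoglycans Dcn and Lum differed by 1.73 (SE 0.09) and 2.75 (SE 0.14). Lum was between 2.49 and 6.49 CPM in 0824 and between 18.4 and 35.5 in 0826. Snai1, a repressor of E-cadherin transcription, differed by 1.51 (SE 0.10) and the growth factor receptor Pdgfra by 1.53 (SE 0.19). In bulk RNA a larger share of cells of a type and more RNA per cell cannot be told apart.

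Genes that act on the matrix followed. Of 17 matrix proteases and inhibitors tested of 19 listed, 13 were called higher in 0826 and 0 higher in 0824, with a median of 0.73. Examples were the gelatinase Mmp2 (1.26, SE 0.05), the aggrecanases Adamts1 (1.44) and Adamts5 (1.50), and the collagenase Mmp13 (1.43). Of 21 genes of collagen modification and crosslinking, which include prolyl hydroxylases, 12 were higher in 0826 and 1 was higher in 0824, with a median of 0.31. The lysyl oxidase Loxl1 differed by 1.15 and the prolyl hydroxylase subunit P4ha3 by 1.24. Outside these lists, 3 matrix genes stood among the 15 largest differences higher in 0826, ranked within the same limits of level and sign. Hmcn1, an extracellular fibulin-family protein, was between 5.14 and 12.1 CPM in 0824 and between 41.5 and 73.3 in 0826 and differed by 2.88. Col6a6, a collagen VI chain, differed by 2.65 and Has1, a hyaluronan synthase, by 2.93, neither with overlap.

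**Figure D4:**
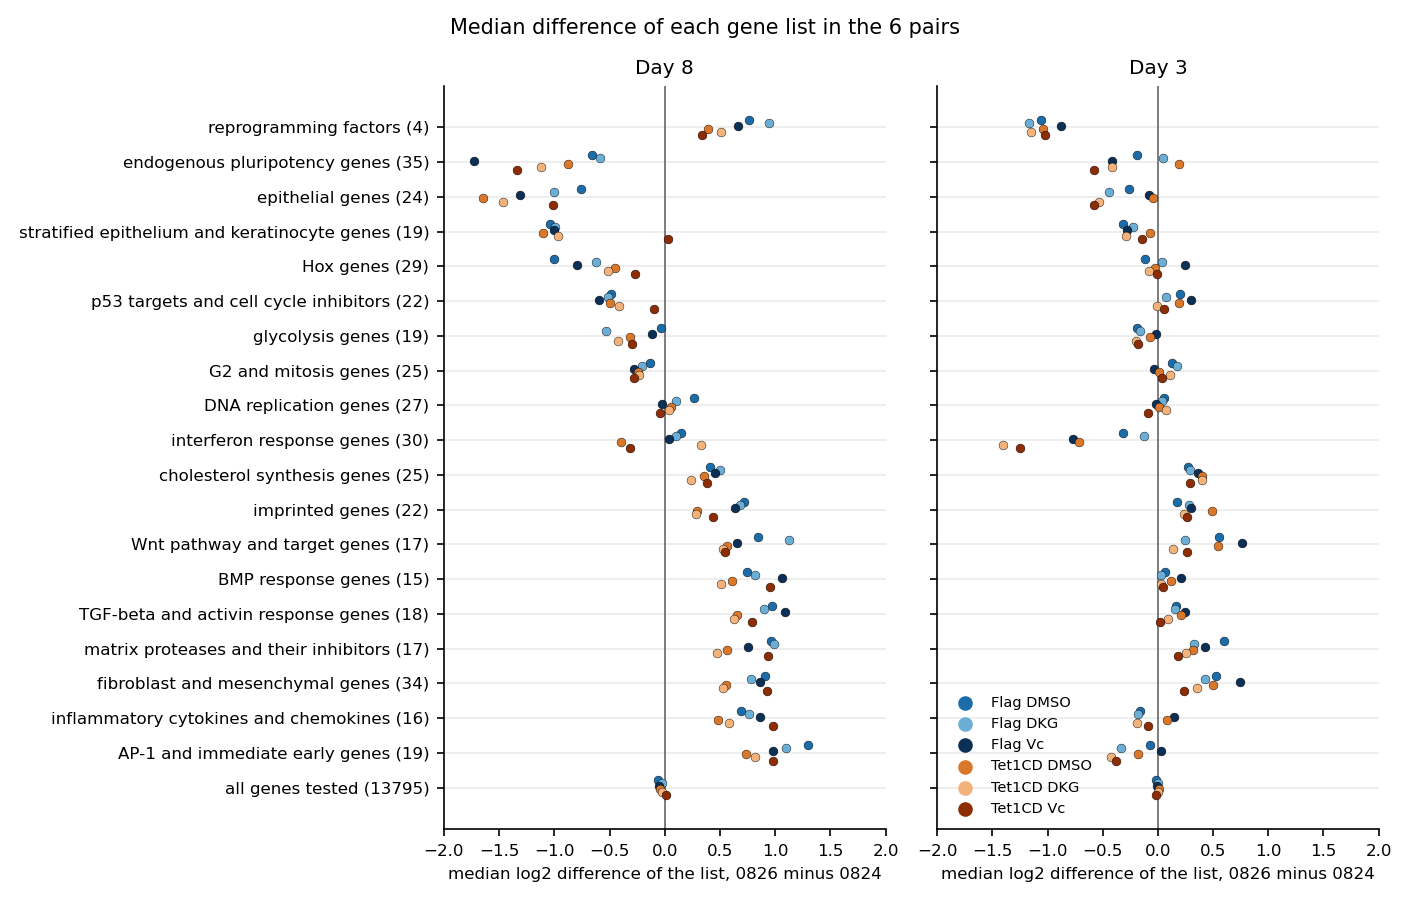
Median log2 difference, 0826 minus 0824, of 19 gene lists and of all genes tested, with the number of genes tested at day 8 in brackets. Each point is 1 of the 6 pairs, at day 8 on the left and day 3 on the right. At day 8 the epithelial and pluripotency lists lie below 0 and the fibroblast and AP-1 lists above 0 in all 6 pairs.

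AP-1 and immediate early genes, which respond within minutes to growth factors and stress, were higher in 0826. Of 19 tested, 16 were called higher in 0826 and 0 higher in 0824, with a median of 1.08. Their summed level was 866 to 999 CPM in 0824 and 1423 to 2183 in 0826. Fosl2, an AP-1 subunit, lay between 81.5 and 94.2 CPM in 0824 and between 271 and 354 in 0826, so the 2 sets did not overlap. It differed by 1.77 (SE 0.06, adjusted p = 1.2e-08). Fosb, another subunit, was between 3.40 and 6.87 CPM in 0824 and between 15.5 and 57.4 in 0826, and differed by 2.83 (SE 0.17). Egr2 (1.64), Egr3 (1.76) and Atf3 (2.00) were called in the same direction. Fos itself, named after its values were seen, had a difference of -0.42 with an adjusted p of 0.10, so the list was not uniform.

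The 15 largest differences higher in 0826, ranked within those limits of level and sign, lay mostly outside the lists. Gfpt2, an enzyme of hexosamine synthesis (chr11:49794178-49838613, GRCm38), had the smallest adjusted p of all genes (1.3e-09). It was between 11.4 and 15.5 CPM in 0824 and between 76.8 and 104 in 0826 and differed by 2.75 (SE 0.07). Hmox1, the haem oxygenase of the oxidative stress response, was between 43.6 and 113 CPM in 0824 and between 338 and 586 in 0826. Its difference was 2.80 (SE 0.19). Nr4a3, an orphan nuclear receptor, was between 1.95 and 3.36 CPM in 0824 and between 25.96 and 46.8 in 0826 (3.71, SE 0.13). Hivep3, a zinc finger protein (3.49), Xirp1, an actin-binding protein of muscle (4.05), and Entpd2, an ectonucleotidase (2.62), likewise did not overlap. Errfi1, an inhibitor of EGF receptor signalling, was between 29.98 and 51.6 CPM in 0824 and between 207 and 382 in 0826 (2.84, SE 0.14). Gm26778 (4.96) was at 0 in 5 of the 6 libraries of 0824, and Pakap (3.25) at 0 in 2, and both may share reads with other loci, so their levels are uncertain. On the other side, Zfp808 (-2.20) and Zfp990 (-2.08) belong to a large family of similar zinc finger genes and are uncertain in the same way. Slc27a2, a fatty acid transporter, differed by -2.54 and 2900052L18Rik by -2.13.

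**Figure D5:**
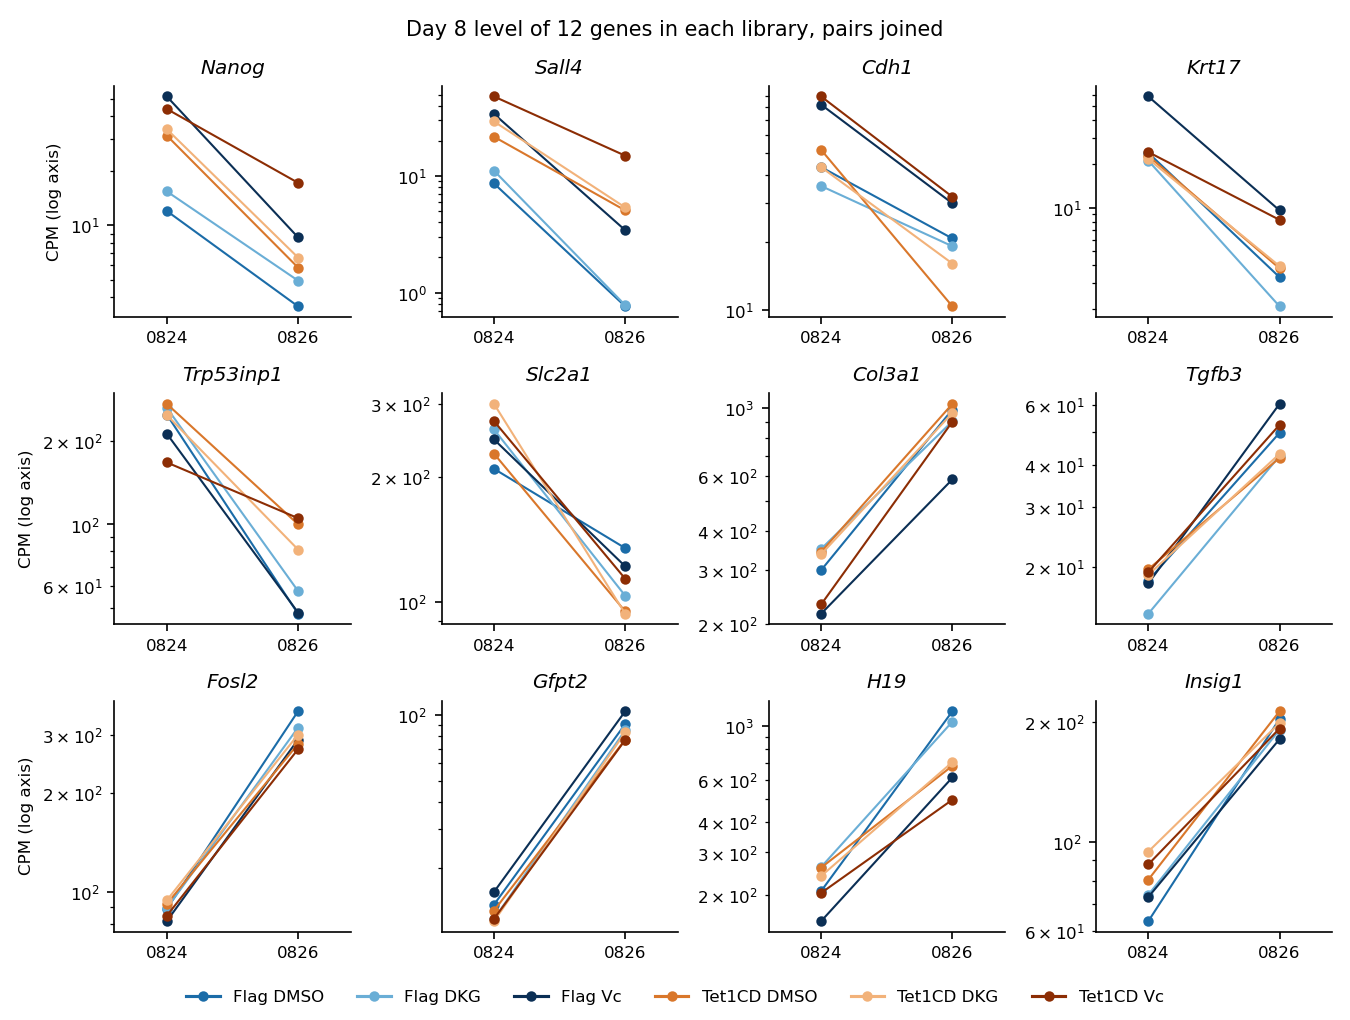
CPM of 12 genes in each day 8 library, on a log axis of its own for each gene. Lines join the 2 libraries of a pair, coloured by condition. Gfpt2, for example, sits between 11.4 and 15.5 CPM in 0824 and between 76.8 and 104 in 0826, with no overlap.

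Because AP-1 genes moved together, the 250 bases upstream of each gene start were searched for TGANTCA after the values were seen. N stands for any base. The pattern covers TGACTCA and TGAGTCA, the heptamers that AP-1 dimers bind, and also those with A or T at N, so the shares below are not of AP-1 heptamers alone. The motif is its own reverse complement, so both strands are covered by 1 search. Of 10432 genes with a window in RefSeq (GRCm38.p6), 5.63% held it. The share was 5.91% among 2673 genes called higher in 0826, 5.46% among 3078 called higher in 0824, 8.21% among 585 higher in 0826 by over 1 log2 and 5.79% among 484 higher in 0824 by over 1 log2. A match is a description and not a bound site. 3 windows are shown, those of Gfpt2, Entpd2 and Srxn1 (an enzyme that repairs oxidised peroxiredoxins, with a log2 difference of 1.76, SE 0.14), chosen after the values were seen as named genes with a match. All are on the plus strand, with the match in capitals, at chr11:49793905-49794154 for Gfpt2, chr2:25395624-25395873 for Entpd2 and chr2:152105274-152105523 for Srxn1. The matches begin 223, 99 and 102 bases before the RefSeq gene start, and Srxn1 holds 2. For Gfpt2 that start lies upstream of the one printed above.
Gfpt2: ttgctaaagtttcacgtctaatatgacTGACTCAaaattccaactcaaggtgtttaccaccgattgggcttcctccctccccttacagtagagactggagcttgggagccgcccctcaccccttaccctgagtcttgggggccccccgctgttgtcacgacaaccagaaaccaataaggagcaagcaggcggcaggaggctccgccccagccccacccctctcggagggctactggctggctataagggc
Entpd2: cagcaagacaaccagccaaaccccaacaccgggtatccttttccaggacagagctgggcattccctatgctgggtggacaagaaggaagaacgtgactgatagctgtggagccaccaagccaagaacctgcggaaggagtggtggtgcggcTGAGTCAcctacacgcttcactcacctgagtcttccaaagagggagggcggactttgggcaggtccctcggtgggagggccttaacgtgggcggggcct
Srxn1: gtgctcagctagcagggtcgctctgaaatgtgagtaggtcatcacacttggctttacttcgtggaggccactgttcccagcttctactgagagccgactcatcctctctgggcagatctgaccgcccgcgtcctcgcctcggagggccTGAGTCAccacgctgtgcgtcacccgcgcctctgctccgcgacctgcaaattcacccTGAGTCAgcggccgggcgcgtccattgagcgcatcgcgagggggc

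Genes of growth factor pathways that act on mesenchymal cells were mostly higher in 0826. They include inhibitors as well as ligands and targets, and the activity of the pathways was not measured. Of 18 TGF-beta and activin response genes, 17 were called higher in 0826 and 1 higher in 0824, with a median of 0.76. Tgfb3, a TGF-beta ligand, was between 14.6 and 19.7 CPM in 0824 and between 41.8 and 60.2 in 0826, with no overlap (1.40, SE 0.10, adjusted p = 4.6e-07). The inhibitory Smad7 differed by 1.13 and the feedback regulators Skil and Pmepa1 by 1.16 and 1.23. Of 15 BMP response genes tested of 17, 13 were higher in 0826 and 0 higher in 0824, with a median of 0.69. The ligand Bmp2 differed by 1.38, the antagonist Nog by 2.14, and the target genes Id2 and Smad6 by 1.13 and 1.55. Of 17 Wnt genes tested of 21, 11 were higher in 0826 and 2 higher in 0824, with a median of 0.61. The secreted Wnt binders Wif1 (2.09) and Sfrp2 (1.47), the Dickkopf family member Dkk3 (1.55) and the receptor Lgr5 (2.02) were higher in 0826, whereas the ligand Wnt7b was higher in 0824 (-1.98).

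Cytokines and chemokines were also higher in 0826. Of 16 tested of 24, 11 were called higher in 0826 and 2 higher in 0824, with a median of 0.82. Csf1, the growth factor of macrophages, was between 63.2 and 112 CPM in 0824 and between 246 and 354 in 0826, without overlap (1.85, SE 0.08). Il6 differed by 1.81, the chemokines Cxcl1 and Cxcl12 by 1.36 and 1.56, while the acute phase protein Saa3 was higher in 0824 (-1.79). Interferon response genes did not follow: of 30 tested, 4 were called in each direction, and the median was -0.05. Without the Tet1CD Vc pair, 5 of 29 were higher in 0826 and 2 in 0824, with a median of 0.11. Of 13 Oas genes and RNA sensors, 2 were higher in 0826 and 5 higher in 0824, with a median of -0.14. Without that pair, 3 and 4 of 11 were, with a median of 0.06.

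p53 targets and cell cycle inhibitors were mostly lower in 0826. Of 22 tested, 15 were called higher in 0824 and 2 higher in 0826, with a median of -0.49. Trp53inp1, a stress-induced p53 target, was between 168 and 273 CPM in 0824 and between 47.5 and 105 in 0826, without overlap (-1.71, SE 0.18, adjusted p = 1.2e-05). The apoptosis gene Bbc3 differed by -1.50 (SE 0.13), the desmosomal Perp by -1.19 and the stress sensor Sesn2 by -0.71. The death receptor Fas (1.38) went the other way, and the largest difference of the list in that direction was 1.525. Of 25 G2 and mitosis genes, 14 were higher in 0824 and 3 higher in 0826, with a median of -0.20, led by Plk1 (-0.88) and Cdc20 (-0.71). Scaling by library totals left 15 higher in 0824 and 0 in 0826. Of 27 DNA replication genes, 8 were higher in 0826, a share near the 25.7% of all genes, and 3 in 0824, with Gins2 (0.58) and Pola1 (0.51) highest and Ccne1 (-0.50) lowest. Scaling by library totals gave 4 higher in 0826 and 5 in 0824.

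Of 29 Hox genes tested of 32, 17 were called higher in 0824 and 1 higher in 0826, with a median of -0.53. Hoxc6 was between 26.6 and 41.1 CPM in 0824 and between 5.14 and 16.6 in 0826, without overlap (-1.37, SE 0.19), and Hoxb7, Hoxb6 and Hoxc4 differed by -1.35, -1.14 and -1.18. Hoxb5 differed by -1.12.

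Of 22 imprinted genes tested of 25, 14 were called higher in 0826 and 3 higher in 0824, with a median of 0.53. H19 and Igf2 are neighbours on chromosome 7, expressed from opposite parental alleles. H19 was between 156 and 261 CPM in 0824 and between 495 and 1149 in 0826, and Igf2 between 33.3 and 69.5 in 0824 and between 101 and 330.1 in 0826. Neither overlapped. They differed by 1.78 (SE 0.13) and 1.88 (SE 0.15). Dlk1, a Notch ligand homologue (2.04), Mest (1.92) and the cell cycle inhibitor Cdkn1c (1.67) were also higher in 0826.

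Lipid synthesis differed in part. Of 25 cholesterol synthesis genes, 14 were called higher in 0826 and 3 higher in 0824, with a median of 0.30. Insig1, a sterol sensor, was between 63.5 and 94.7 CPM in 0824 and between 181 and 212 in 0826, without overlap (1.33, SE 0.08). The demethylase Cyp51 differed by 1.21. Of 12 fatty acid synthesis genes, 7 were higher in 0826 and 3 higher in 0824, led by Acsl3 (0.96) and the desaturases Fads1 (0.94) and Fads2 (0.93). Of 19 glycolysis genes, 12 were higher in 0824 and 3 higher in 0826, with a median of -0.28. The glucose transporter Slc2a1 was between 209 and 299 CPM in 0824 and between 93.9 and 135 in 0826, without overlap (-1.19, SE 0.10).

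Stress programmes were mixed. Of 20 Nrf2 and redox genes, 7 were higher in 0826 and 6 in 0824, and Srxn1 (1.76), Gclc (0.95) and Hmox1 led the former. Without the Tet1CD Vc pair the counts were 10 and 7. Of 25 hypoxia genes, 5 were higher in 0826, among them the angiogenic factor Vegfa (1.12), and 9 in 0824, among them Narf (-1.98). Of 23 integrated stress genes, 6 were higher in 0826, led by Cebpb (1.58), and 9 in 0824, led by the amino acid transporter Slc7a3 (-1.12). Of 19 unfolded protein response chaperones, 9 were higher in 0824, led by Sdf2l1 (-1.05), and 2 in 0826, among them Herpud1 (0.87). Of 15 heat shock genes, 8 were higher in 0824, led by Cryab (-0.67), and 2 in 0826, among them Bag3 (0.96). Of 31 nuclear genes of oxidative phosphorylation, 7 were higher in 0824, led by cytochrome c, Cycs (-0.98), and 3 in 0826. Scaling by library totals gave 15 higher in 0824 and 0 in 0826.

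DNA methylation and demethylation enzymes were split, with 6 of 17 called higher in 0824 and 3 in 0826. Without the Tet1CD Vc pair, 5 of 16 were higher in 0824 and 6 in 0826. The de novo methyltransferase Dnmt3b was between 7.79 and 140.3 CPM in 0824 and between 6.35 and 38.1 in 0826, with overlap (-1.58, SE 0.20). Its partner Dnmt3l differed by -1.85 on few counts and the glycosylase Mbd4 by -0.94. Gadd45b (0.90) and Gadd45g (0.75), damage-inducible genes linked to demethylation, were higher in 0826. Of 8 germline genes tested of 22, 1 was called higher in 0826, Piwil2 (0.50), and 0 were without the Tet1CD Vc pair.

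Markers of other cell types were few and their parts in the results were not tested. Of 20 lysosome genes, 7 were called higher in 0826 and 4 in 0824, which became 12 and 2 without the Tet1CD Vc pair. Of 6 adipocyte markers, 3 were higher in 0826, and without that pair 5 of the list were. Of 10 endothelial markers, 4 were higher in 0826, Sox18 (2.50) and Flt1 (1.13) among them. Of 8 muscle markers 2 were higher in 0826, and of 11 neural markers 4 were higher in 0826, led by the glial filament Gfap (2.32), and 6 in 0824, led by Pax6 (-2.15). Of 7 cartilage and bone markers, 4 were higher in 0826, among them the chondrogenic factor Sox9 (2.41, between 2.99 and 4.97 CPM in 0824 and between 18.5 and 30.5 in 0826), and 1 in 0824. Of 8 extraembryonic endoderm markers, 5 were higher in 0826 and 1 in 0824, Lama1 (-1.46), with 7 and 1 without the Tet1CD Vc pair. Of 4 trophoblast markers, 3 were higher in 0824, among them Eomes (-2.25), which was also the 1 mesendoderm marker tested. Of 5 replication-dependent histone genes 1 was higher in 0826 and 3 in 0824. The 5 sex-linked genes, Xist (0.10) and the Y-linked Ddx3y (-0.02), Eif2s3y (-0.08), Kdm5d (0.03) and Uty (-0.21), were not called.

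Few differences between the numbers were shown to depend on the virus or on vitamin C. Dependence on DKG against DMSO was not tested. For vitamin C against the other media, 0 genes of 13795 (0%) passed edgeR's test of the difference, and DESeq2 called 0. An unadjusted p under 0.05 was found for 656 (4.8%). Without the Flag Vc pair the count was 254, but vitamin C was then 1 pair, Tet1CD Vc, with the macrophage transcripts in its 0824 library, and that lone pair is assumed to vary like the others. For the virus, 2 genes (0.0145%) passed: Errfi1 at -0.88 (SE 0.11, adjusted p = 0.043) and Maml3, a Notch co-activator, at -1.24 (SE 0.16, adjusted p = 0.043), both smaller differences in the Tet1CD pairs than in the Flag pairs. Unadjusted p was under 0.05 for 2169 genes (15.7%), and DESeq2 called 38. Both genes stayed past the threshold without the Tet1CD DKG pair, when 10 genes were called, but neither did without any of the other 5 pairs (adjusted p 0.051 to 0.15), when 0 or 1 were called. The sign was negative in all 6 such fits, from -0.83 to -0.92 for Errfi1 and from -1.12 to -1.33 for Maml3. A gene that missed the threshold is not shown to be alike in both viruses.

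At day 3 the same 2 numbers also differed, with some programmes shared and others turned. Of 13079 genes tested, 2627 (20.1%) were called higher in 0826 and 2629 (20.1%) higher in 0824. Of 12891 genes tested on both days, 3112 were called on both, which is 44.0% of the 7076 day 8 calls and 59.7% of the 5212 day 3 calls. Of these, 1942 (62.4%) lay in the same direction. 618 were higher in 0824 at day 3 and in 0826 at day 8, and 552 the reverse. The change of the difference between the days was called for 6394 of 14015 genes (45.6%), 3212 of them more positive at day 8.

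Fibroblast genes were higher in 0826 on both days, with 22 called higher and 0 lower at day 3 (median 0.45). Col3a1 differed by 0.44 at day 3 and 1.60 at day 8. Matrix proteases behaved likewise, with 9 of 15 higher at day 3, as did cholesterol synthesis genes, with 19 higher and 1 lower of 25 (median 0.34). Pluripotency genes were mostly higher in 0824 on both days, with 12 of 22 tested at day 3 (median -0.41) and 2 in 0826. The day 3 difference was less steady over the pairs. Over the 35 genes tested at day 8, its median was 0.05 in the Flag DKG pair and 0.19 in the Tet1CD DMSO pair. In the other pairs it was between -0.58 and -0.19. The AP-1 list differed between the days: at day 3, 2 were higher in 0826 and 9 higher in 0824, with a median of -0.17, against 16 and 0 at day 8. p53 targets lay the other way at day 3, with 9 higher in 0826 and 3 in 0824, and for 20 of them the change between the days was called. Interferon genes, split at day 8, were lower in 0826 at day 3, with 18 of 26 called higher in 0824 and 1 in 0826 (median -1.04). Oas3, a sensor of double-stranded RNA, differed by -2.66 at day 3 and -0.98 at day 8.

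The genes of smallest p for a change between the days included Gfpt2, at -0.28 on day 3 and 2.75 on day 8 (change 3.03, SE 0.13). Arhgap36 (3.87), Atp2a3, a calcium pump (3.26), and Jam2, a junction molecule (1.90), shifted towards 0826. Slc39a10, a zinc transporter (-1.40), Lgals3 (-1.52), Pbx2 (-1.71), Msn (-0.96) and Robo2 (-2.38) shifted towards 0824.

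The 2 untreated MEF libraries allow no test, since each number has 1. Across genes (not independent replicates) the MEF difference correlated with the day 8 difference at r = 0.039 and the day 3 difference correlated with the day 8 difference at r = 0.135, both descriptions without a p. The cholesterol list was higher in the 0826 MEF library for 25 of 25 genes (median 0.55), the interferon list had a median of -1.31, and the AP-1 list had a median of -0.56 with 0 of 19 genes above 0. Whether the cells being reprogrammed came from these MEF is not stated.

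The called genes were also placed on the span from MEF to ESC, by their levels in the ESC and untreated MEF libraries. The fit that set the spread for this also held the day 8 libraries, so these calls are not independent of the day 8 comparison. Between ESC and MEF, 26.8% of 14914 genes were called higher in ESC and 25.7% higher in MEF. Of 3549 genes called higher in 0826 at day 8, 13.44% were higher in ESC and 40.15% in MEF. Of 3956 called higher in 0824, 31.95% were higher in ESC and 15.02% in MEF. Over all 13785 genes tested in both, the shares were 25.36% and 26.41%. These shares have no test, and 1 of the 2 ESC libraries carried fibroblast transcripts: Col1a1 was at 4326 CPM in it and 27.65 in the other.

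Differences also went with gene length: in 5 equal groups of genes by transcript length the median difference ran from -0.11 in the shortest to 0.11 in the longest. In 5 groups by rising GC content the medians were -0.06, 0.01, -0.02, -0.06 and -0.09. The part of length and of GC content in the named results was not tested.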

How the data were processed

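RNA was extracted with Trizol and made into libraries with a TruSeq RNA kit from 1 ug of total RNA, per the labels' protocols, a kit that does not mark strand. Per the submitters' processing notes, Bowtie, RSEM and the mouse build mm10 were used. Tool versions were not given in the sources used here. The deposited expected counts per gene (RSEM's estimated counts, in which multi-mapped reads are shared) and the deposited TPM values were used as the authors left them. Expected counts were rounded to whole numbers. Of 29267 identifiers, 28756 were matched to gene names in GENCODE and 511 were not. Genes were filtered by edgeR's filterByExpr, libraries scaled by TMM, and each comparison fitted with edgeR 4.0.16 (R 4.3.3) by glmQLFit and glmQLFTest, two-sided, with Benjamini-Hochberg adjustment over all genes tested and 0.05 as threshold. The day 8 fit used the 12 day 8 libraries, with each combination of virus and medium as a block. Alternatives used DESeq2 1.42.0 and limma 3.58.1 on log2(TPM + 1) with genes of a mean TPM of at least 1.

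Totals per library at day 8 ran from 3953297 to 6818060 counts. On simulated data with 13795 genes, 95% of 100 genes changed by 1 log2 and 74% of 100 changed by 0.5 log2 were recovered, with 10 false calls (5.59% of calls). The changed genes were drawn only from genes above a cut on mean counts, and far fewer changed than were called in the data. These rates thus need not hold for the real comparison or for genes near 0. CPM values use a prior count of 2 only for principal components, shares of squared deviations and pair differences. The ESC libraries carry numbers in their files that are swapped against their titles, and files were assigned by the deposited record. Mitochondrially encoded genes, most cytosolic ribosomal protein genes and two-cell-like genes were not analysed here, as fewer than 3 of each list were tested.

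The genes named are the 15 with the largest difference in each direction (mean of at least 5 CPM, same sign in 6 of 6 pairs), up to 5 called genes of each list (2 of smallest p where none was called), the reprogramming factors, Tet1, Nanog, Xist and the Y-linked genes, and up to 5 genes in each direction of each test of dependence. Where another gene is named, the text says so, and some genes that the rule picks are not reported here. The comparison, the gene lists and the rules were chosen with earlier results of these data known. Sequences and the gene starts used for the upstream windows come from RefSeq, and the coordinates printed for Nanog and Gfpt2 come from GENCODE.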

Additional observations from a re-analysis of the deposited data

Results flagged for a closer look

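In 81 sets of 6 pair values, the highest or lowest pair was tested for lying far from the other 5, and 6 sets had such a pair. Chance gives about 1 in 20, and some sets share genes, as Ctss is 1 of the macrophage markers. The count of 6 in 81 is thus not a result by itself. All 6 were the Tet1CD Vc pair, whose 0824 library carried macrophage transcripts. Its median log2 difference was -5.53 for the macrophage and blood markers (others -0.84 to 0.13) and -0.57 for the lysosome genes (others 0.27 to 0.41). It was -0.83 for the adipocyte markers (others 0.99 to 1.40) and -0.10 for the p53 targets (others -0.59 to -0.42). It was 0.0332 for the stratified epithelium genes (others -1.10 to -0.96). The difference of Ctss alone was -7.61 in that pair, against -2.16 to -0.12 in the others. The part of the macrophage transcripts in the p53 and epithelial values was not tested.

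In edgeR's test over all 6 pairs, the difference between the numbers depended on the virus for Errfi1, by -0.88, and for Maml3, by -1.24, on the log2 scale, both smaller in the Tet1CD pairs. Both calls were lost when any 1 pair other than Tet1CD DKG was left out. It depended on the day for 6394 genes, of which those of smallest p in each direction were Gfpt2 (3.03), Klf4 (1.94), Arhgap36 (3.87), Atp2a3 (3.26) and Jam2 (1.90), more positive at day 8, and Slc39a10 (-1.40), Lgals3 (-1.52), Pbx2 (-1.71), Msn (-0.96) and Robo2 (-2.38), more negative at day 8.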

How the results depend on the processing

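Leaving out 1 pair at a time gave 6430 to 7661 genes differing between the numbers at day 8, 3143 to 3673 of them higher in 0826 and 3287 to 3988 higher in 0824, and 4337 to 5321 at day 3. DESeq2 called 6177 at day 8, 3648 at day 3 and 5376 for the dependence on the day. RLE scaling, library totals, no filter, additive terms, 24 libraries in 1 fit, TPM values, thinned counts and the 4 pairs without vitamin C gave 6564 to 8021 calls at day 8. Without the block for virus and medium, the unpaired fit called 5959 genes, 2880 higher in 0826 and 3079 higher in 0824. The dependence on vitamin C was called for 0 to 254 genes when 1 pair was left out, 254 being the fit without the Flag Vc pair, where vitamin C is 1 pair, and the dependence on the virus for 0 to 10, with 38 by DESeq2. The cause of these moves was not tested. Of 219 named genes, 173 kept their direction and side of the threshold in every setting run for them, and none reversed. Over all genes and settings, 109 values lost and 4 gained the threshold and 3340 did neither. Without the Tet1CD Vc pair the counts higher in 0826 and 0824 were 28 and 2 for the fibroblast list, 14 and 2 for collagen modification, 11 and 1 for Wnt and 4 and 1 for the endothelial markers. Under library totals they were 26 and 3 for the fibroblast list, 16 and 2 for AP-1, 12 and 2 for collagen modification, 1 and 11 for the unfolded protein response and 1 and 5 for Oas. The sign of the median changed with the scaling or without the Tet1CD Vc pair for the DNA methylation, Oas, interferon and sex-linked lists.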
